A study of Mus musculus with 6 samples.

Results

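The pericytes of the *NG2* line were compared between mice that had received a saline injection into the cortex (physical injury) and mice with no injury (naïve). The cells were those that the authors' clustering of the line had placed in clusters 0, 1 and 2, which the study named activated (cluster 0) and canonical (clusters 1 and 2) pericytes. There were 3243 such cells of the 4306 in the naïve library and 1106 of the 2563 in the physical injury library, of 17033 cells in the whole series. Each condition was 1 library, made from the pooled cortices of several mice of both sexes, so that no test between conditions could be made. No p-value is given, and every interval covers counting error only.

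Both groups were *NG2-Cre-ERT2/Ai14-flx* mice of 3 to 4 months, in which tamoxifen switches on the red reporter tdTomato (tdT) in cells that use the NG2 (*Cspg4*) promoter, pericytes, smooth muscle cells and oligodendrocyte precursors among them. The injured mice received tamoxifen 7 days before the saline injection and were sampled 3 days after it, and the naïve mice received tamoxifen and no injection. Set beside them below are ischemic injury mice of this line, injected with ET-1 and L-NAME in place of saline. Naïve and saline-injected *Tbx18-CreERT2/Ai14-flx* mice are also set beside them. These mice too were 3 to 4 months old, with tamoxifen 7 days before any injury and sampling 3 days after it. Cortical tissue, from both hemispheres in the naïve mice and from the damaged cortex in the injured mice, was dissociated with papain, and live tdT+/DAPI- cells were sorted for droplet sequencing from the 3' end of transcripts. The hour at which tissue was collected and the order in which the libraries were made are not given in the sources used here, and the study's methods name a range of Cell Ranger versions without saying which one counted which library. Condition, animals, tissue region, library preparation and counting version therefore cannot be told apart.

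Pericytes sit in the wall of capillaries, wrapped around the endothelium within a shared basement membrane. They take part in keeping the blood-brain barrier closed, in setting capillary width and in the repair of damaged vessels. Like other cells they carry immediate early genes, which are transcribed rapidly and without new protein synthesis after a stimulus. These encode short-lived regulators such as FOS and JUN, which pair into the transcription factor AP-1.

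The cells carried pericyte transcripts in both libraries. *Vtn* (vitronectin, a matrix protein) stood at 19134 counts per 1000000 UMIs (CPM) in the naïve and 18539.7 CPM in the physical injury pericytes, and *Rgs5* (a brake on G protein signaling) at 7554 and 7448 CPM. Summed over 10 markers each, transcripts of oligodendrocyte precursors reached 42.3 and 42.7 CPM and those of neurons 22.5 and 17.9 CPM, against 38518 and 37251 CPM for the 10 pericyte markers. Oligodendrocyte markers summed to 519 and 378 CPM, smooth muscle markers to 2046 and 1892 CPM, fibroblast markers to 658 and 692 CPM, markers of radial glia to 407 and 405 CPM, macrophage and neutrophil markers to 14.7 and 18.3 CPM and erythrocyte markers to 1.33 and 4.48 CPM. The astrocyte sum of 2915 and 2631 CPM was mostly *Cst3* (2865 and 2581 CPM), a secreted protease inhibitor, and 3 and 5 of the 10 astrocyte markers were at 0. Of 12 microglia markers, the 11 reported here summed to 11.95 and 15.7 CPM.

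Endothelial transcripts differed by their level. The 13 endothelial markers summed to 1261 and 1301 CPM, and the 4 at 50 CPM or more, among them *Flt1* and *Esam*, had a median log2 ratio of -0.03. The median was 0.12 with a minimum of 10 CPM and 0.80 with no minimum. *Cldn5*, a tight junction protein that defines brain endothelium, was at 0.781 and 9.71 CPM from 10 and 52 UMIs, and *Ly6c1*, an endothelial surface protein, at 0.625 and 6.91 CPM from 8 and 37 UMIs. Both were chosen after their values were seen, and the part of endothelial transcripts in the other ratios was not tested.

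The depth of the libraries was unequal. The summed counts were 12800521 UMIs (naïve) and 5358065 UMIs (physical injury), with a median of 3821 and 4684 UMIs per cell. A count of 3, set as the floor, corresponds to 0.234 and 0.560 CPM. The pericytes of the libraries shared 1 cell barcode. Cluster 0 held 39.5% (95% exact interval 37.8 to 41.2%) of these pericytes in the naïve and 34.4% (31.6 to 37.3%) in the physical injury library, cluster 1 held 33.5% and 28.8%, and cluster 2 held 27.04% and 36.8%.

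At 3 days after the saline injection the pericytes of these clusters differed little from naïve pericytes at most of the genes assessed. These were the 4146 genes at 50 CPM or more, of 18852 with counts, and several of those that differed fell into groups. Of the immediate early genes 10 were lower, among them *Atf3*, *Egr1*, *Jun* and *Fos*. The clock output genes *Dbp* and *Nr1d1* were lower and the clock activator *Arntl* higher. A small set that includes *Cdk8* and *Cmss1* was up to 5.27-fold higher, and most of this set was higher in other cell types of the libraries too. Pericyte identity, contractile, matrix, hypoxia and chemokine genes at 50 CPM or more lay within 2-fold of their naïve levels. So did all but 25 of the 4146 genes at that level.

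Ratios were taken on CPM with 1 CPM added to both sides, and a gene was called when it was at least 2-fold apart in the summed cells, reached 50 CPM in either library and had the same direction in each of the 3 clusters. Of 4146 genes at 50 CPM or more, 4040 (97.4%) were within 1.5-fold, and the median log2 ratio of physical injury to naïve was -0.03. This called 8 genes higher (0.193% of those tested) and 17 lower (0.410%), and the requirement on direction removed none. Paired levels are given for naïve and then physical injury pericytes, followed in brackets by the log2 ratio and, where shown, its 95% exact interval. In clusters 0, 1 and 2 taken singly, 0.169%, 0.483% and 0.190% of genes were at least 2-fold higher and 0.434%, 0.507% and 0.309% at least 2-fold lower.

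**Figure D1:**
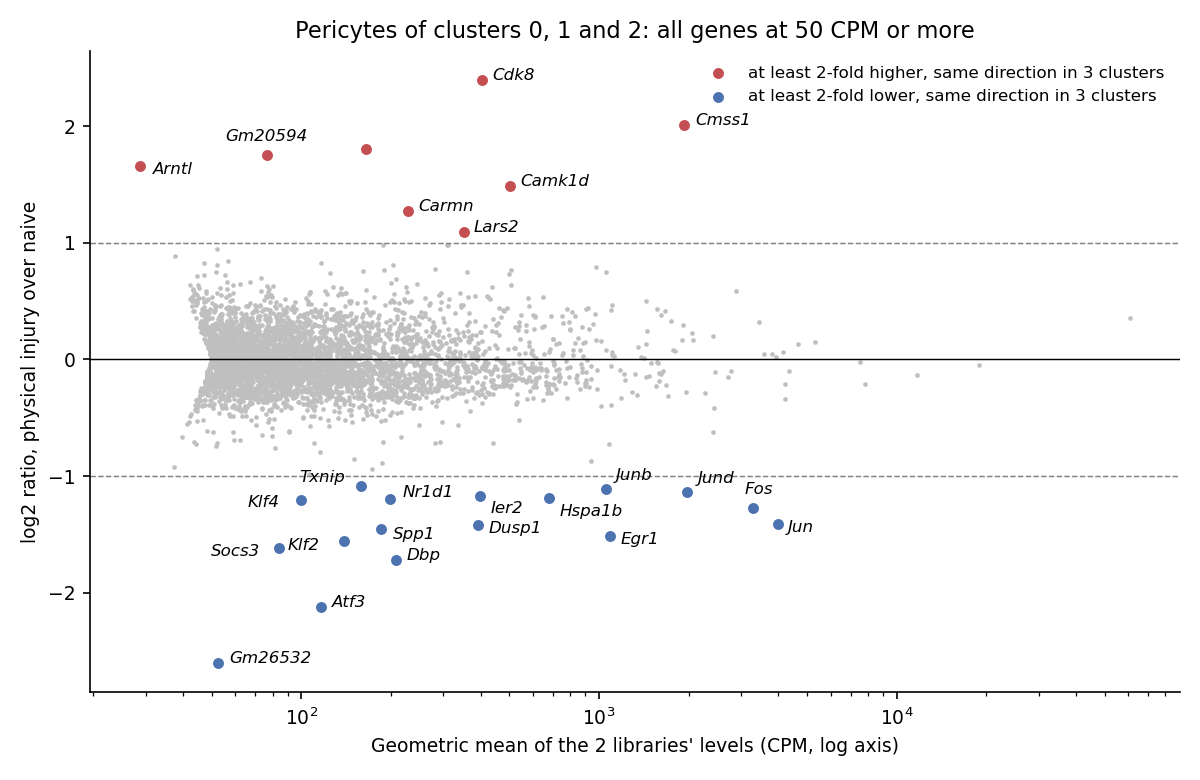
Each point is 1 of the 4146 genes at 50 CPM or more, with its level (CPM, log axis) against its log2 ratio of physical injury to naïve pericytes. The 8 genes called higher and 17 called lower are colored, those reported here with their names, and lie beyond the lines at 2-fold.

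The immediate early genes formed the largest group. Of the 28 on the list, 19 reached 50 CPM, 17 of them were below 0 on the log2 scale, 10 were at least 2-fold lower and none was at least 2-fold higher. Among all genes tested 0.410% were called lower and 44.9% were above 0. The median log2 ratio of the list was -1.11, beside -0.03 over all genes, and it was -0.97, -1.15 and -0.65 in clusters 0, 1 and 2. Their summed level was 22373 CPM in the naïve and 9929 CPM in the physical injury pericytes. These levels, and those of the heat shock genes below, were read after papain digestion and sorting. The part of those steps in them was not tested. The 10 genes were *Atf3*, *Klf2*, *Egr1*, *Dusp1*, *Jun*, *Fos*, *Klf4*, *Ier2*, *Jund* and *Junb*.

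The promoters of some of these genes are shown because the members were lower together. Immediate early genes that were not called were not counted apart, so that the shares below cannot be tied to the lower levels. RefSeq windows (GRCm38.p6) from 250 bases before to 50 bases after the start were matched for 8 of the 10 genes, and not for *Egr1* and *Ier2*. A complete cAMP response element (TGACGTCA) was in 1 of the 8 windows, that of *Dusp1*, and in 2.03% of the windows of 27025 genes. Its core TGACG, searched on both strands and added after the data were seen, was in 6 of 8 windows and in 23.05% of all. The windows of *Jun* and *Jund* did not hold it, and those printed here were picked from the windows that do. An AP-1 element (TGANTCA) was in 0 of 8 and in 8.97% of all, and a CArG box in 0 of 8 and in 1.81%. Of the other motifs searched, the metal response element (TGCACNC or TGCGCNC) was in 5 of 8 and in 28.2% of all, the hypoxia element (ACGTG, which can overlap the core TGACG) in 3 of 8 and in 21.8%, and the E-box (CACGTG, which contains ACGTG) in 2 of 8 and in 8.09%. The heat shock element was in 1 of 8 and in 9.04% of all, an NF-kappaB element in 1 of 8 and in 21.6%, and an interferon-stimulated response element in 0 of 8 and in 3.98%. These are matches of letters, not measured binding. A share of 0 covers these exact letters in these short windows only, since other spellings and bases further away were not searched. It does not show that the genes lack such elements. The core (or CGTCA, where it lies on the other strand) is in capitals.
*Fos* (chr12:85473640-85473939, plus strand): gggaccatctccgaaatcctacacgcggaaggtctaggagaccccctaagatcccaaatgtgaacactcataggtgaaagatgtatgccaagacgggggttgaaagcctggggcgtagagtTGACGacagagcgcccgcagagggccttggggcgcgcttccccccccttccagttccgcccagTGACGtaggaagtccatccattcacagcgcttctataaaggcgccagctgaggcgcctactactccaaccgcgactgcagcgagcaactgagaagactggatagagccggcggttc
*Junb* (chr8:84978699-84978998, minus strand): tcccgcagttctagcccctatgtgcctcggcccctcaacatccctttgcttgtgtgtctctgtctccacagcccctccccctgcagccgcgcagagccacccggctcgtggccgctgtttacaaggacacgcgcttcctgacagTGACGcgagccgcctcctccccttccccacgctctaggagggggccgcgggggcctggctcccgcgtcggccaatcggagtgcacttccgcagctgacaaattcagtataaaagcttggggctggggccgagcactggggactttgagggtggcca
*Atf3* (chr1:191183284-191183583, minus strand): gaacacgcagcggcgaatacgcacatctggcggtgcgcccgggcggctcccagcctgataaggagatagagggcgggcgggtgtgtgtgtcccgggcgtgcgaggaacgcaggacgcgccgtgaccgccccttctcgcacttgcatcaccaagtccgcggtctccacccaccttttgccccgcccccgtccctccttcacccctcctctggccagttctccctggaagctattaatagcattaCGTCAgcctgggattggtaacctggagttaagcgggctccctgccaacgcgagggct
*Dusp1* (chr17:26508423-26508722, minus strand): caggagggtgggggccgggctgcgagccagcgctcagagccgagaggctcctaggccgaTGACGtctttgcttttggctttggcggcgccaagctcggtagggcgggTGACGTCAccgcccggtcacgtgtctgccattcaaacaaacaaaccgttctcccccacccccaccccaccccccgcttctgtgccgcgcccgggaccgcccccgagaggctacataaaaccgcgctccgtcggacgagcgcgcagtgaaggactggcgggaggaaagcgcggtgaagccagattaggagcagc

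*Jun*, *Fos* and *Jund*, subunits of AP-1, were the most abundant members. *Jun* (chr4:95049034-95052222, mm10) stood at 6500.1 CPM in the naïve and 2442 CPM in the physical injury pericytes, a log2 ratio of -1.41 (95% exact interval -1.44 to -1.39). By cluster it was at 11069, 2977 and 3142 CPM in naïve clusters 0, 1 and 2 and at 4676, 907 and 1306 CPM after physical injury. Cluster 0 therefore stood above the other clusters in both libraries, as its naming by such genes fixes, and each cluster was lower after injury. *Fos* (chr12:85473890-85477273) was at 5125 and 2118 CPM in the summed cells (-1.27, -1.30 to -1.25), with cluster ratios of -1.13, -1.60 and -0.91. *Jund* was at 2937 and 1336 CPM (-1.14) and *Junb* at 1545 and 716 CPM (-1.11). *Fosb* (567 and 344 CPM, -0.72) was also below its naïve level, by less than 2-fold.

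Regulators that are induced beside AP-1 were lower as well. *Egr1*, a growth factor-induced activator, was at 1843 and 646 CPM (-1.51, -1.56 to -1.46), with cluster ratios of -1.38, -1.65 and -1.19. *Atf3*, a stress-induced member of the CREB family, was at 245 and 55.4 CPM (-2.12, -2.32 to -1.97), and by cluster at 503, 37.98 and 61.05 CPM in the naïve and 119, 12.4 and 22.7 CPM in the injured cells. *Klf2* and *Klf4*, Krüppel-like factors of vascular cells, were at 239 and 80.4 CPM (-1.56) and at 153 and 65.5 CPM (-1.21). Ratios of the summed cells also carry the shares of the clusters, and cluster 0 held 39.5% of naïve and 34.4% of injured pericytes. With equal weight to each cluster the log2 ratio was -1.66 for *Atf3*, -1.18 for *Klf2*, -1.40 for *Egr1* and -1.31 for *Klf4*. *Atf3*, *Klf2* and *Klf4* were 18.3, 26.01 and 18.03 times as high in another cell cluster of the naïve library as in its pericytes, and the part of transcripts from other cells in their ratios was not tested.

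The feedback inhibitors *Dusp1* and *Socs3* were lower too. *Dusp1*, which removes phosphate from MAP kinases, was at 644 and 240.2 CPM (-1.42, -1.51 to -1.34). *Socs3*, the feedback inhibitor of gp130 and STAT3 signaling, was at 149 and 47.8 CPM (-1.62, -1.83 to -1.45), with cluster ratios of -1.44, -1.43 and -1.67. *Ier2* was at 599.7 and 265 CPM (-1.18) and *Zfp36*, which hastens mRNA decay and lay within 2-fold, at 374 and 229 CPM (-0.71). *Socs3* is also on the list of gp130 and STAT3 response genes, of which 6 reached 50 CPM, 2 were lower (*Socs3* and *Junb*), 3 were above 0 and the median was -0.04. The immediate early genes were not uniform, since *Btg2* (-0.17), *Ier3* (-0.11), *Ier5* (0.09) and *Sik1* (0.24) lay close to 0.

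**Figure D2:**
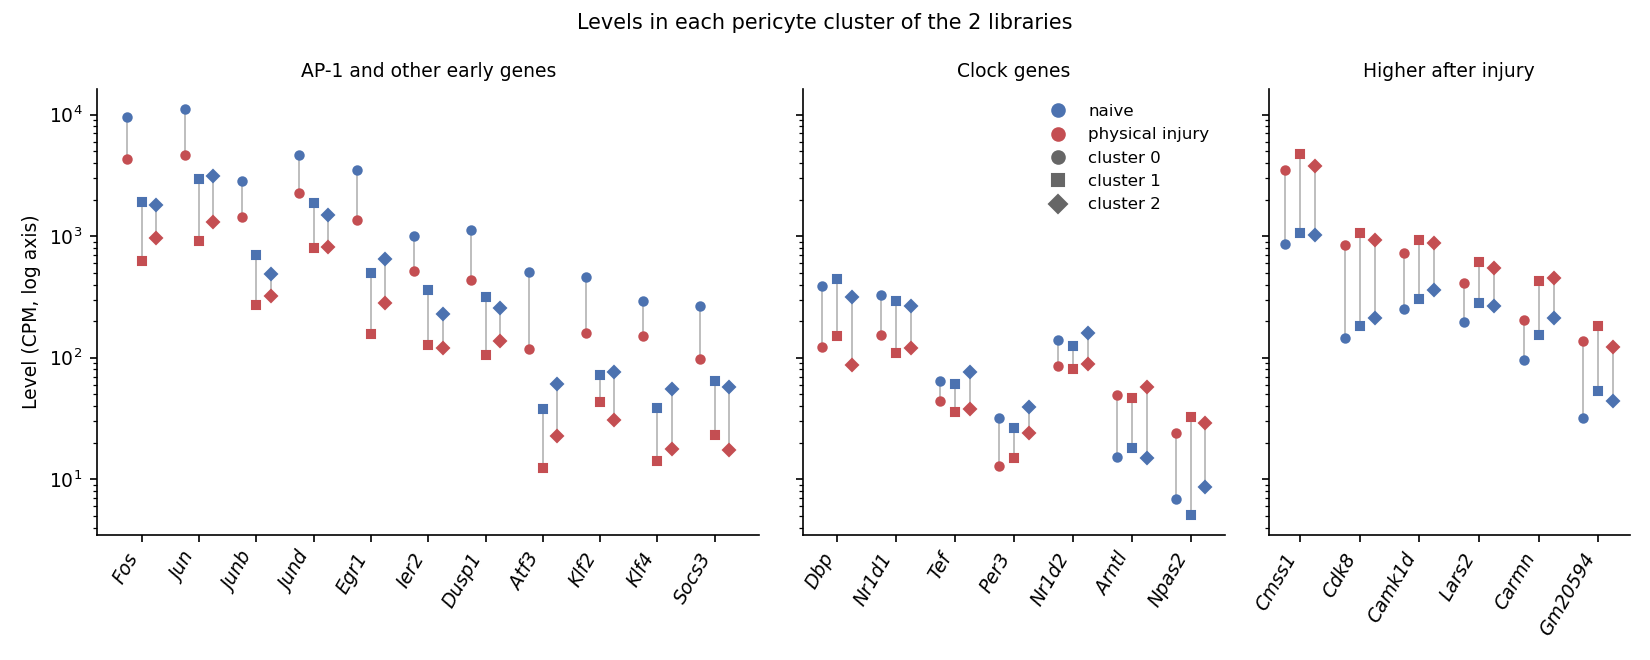
Level of each gene (CPM, log axis) in clusters 0, 1 and 2 of the naïve and physical injury libraries, with a line joining the same cluster. *Jun* and *Fos* are lower and *Cdk8* and *Cmss1* higher after injury in each of the 3 clusters.

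The lower level was seen across the cells of each cluster. After each cell was thinned to 1000 UMIs (35 naïve and 20 injured cells below that depth left out), a naïve cell of cluster 0 had a median of 37 immediate early UMIs, with 20 at the 10th and 62 at the 90th percentile. In the physical injury library the median was 16 and these percentiles were 7 and 34. In each of clusters 1 and 2 the median was 7 UMIs in naïve and 3 UMIs in injured cells. Cells with no immediate early UMI made up 7.48% and 7.89% of naïve and 11.4% and 12.04% of injured cells in clusters 1 and 2. *Egr1* was found in 51.9% of thinned naïve and 33.1% of thinned injured pericytes, and *Atf3* in 12.9% and 3.78%.

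**Figure D3:**
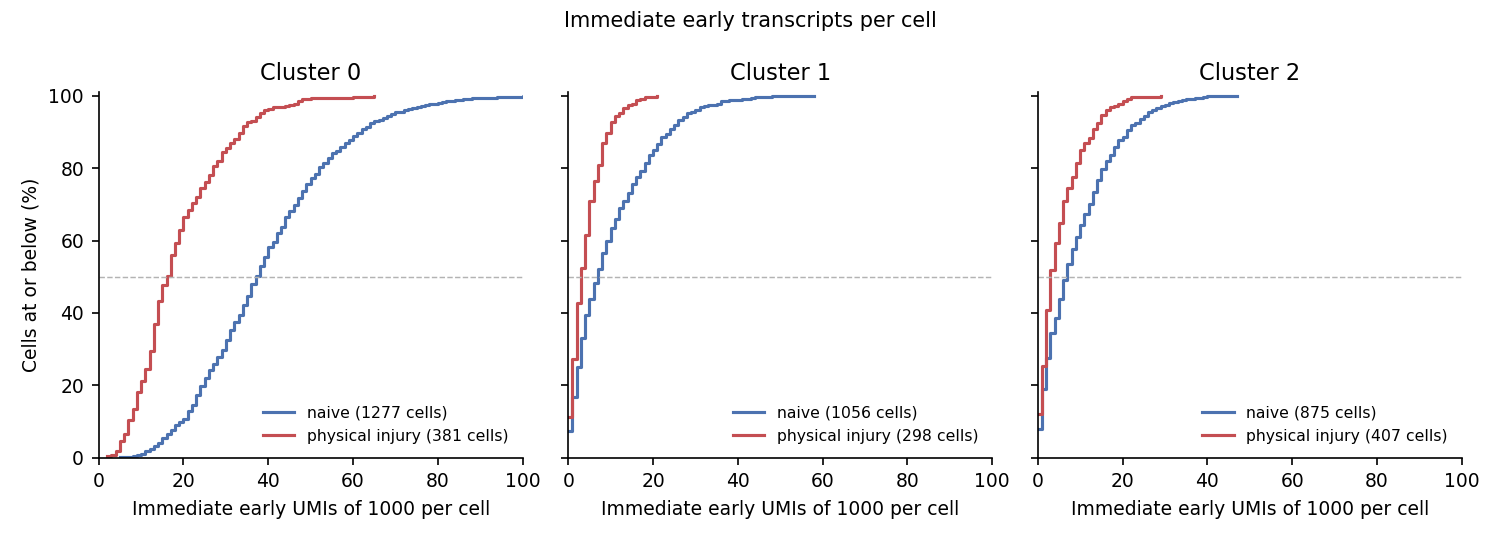
Cumulative share of cells (%) by the number of UMIs from the 28 immediate early genes among 1000 UMIs per cell, in clusters 0, 1 and 2 of the naïve and physical injury libraries. The injured curve lies to the left of the naïve one in each cluster, with medians of 16 and 37 UMIs in cluster 0.

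Other cells of the same libraries had ratios nearer to 0 for these genes. In the smooth muscle cells (cluster 3) the median log2 ratio of the list was -0.08, and in the endothelial cells (cluster 5) -0.28. *Egr1* was at 2562 and 2529 CPM in the smooth muscle cells (-0.02), and *Jun* at 4384 and 2983 CPM (-0.56). The ischemic injury pericytes, which share the naïve library as their reference, held 5853 CPM of *Fos*, 2457 CPM of *Egr1* and 4838 CPM of *Jun*, with a list median of 0.26. The difference between cell types was not tested.

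Of 18 heat shock genes at 50 CPM or more, which encode chaperones and their partners, 1 was called lower, 11 were below 0 and 7 above 0. Over all genes tested 0.410% were called lower and 44.9% were above 0. *Hspa1b*, an inducible HSP70 chaperone, was at 1025 and 450.3 CPM (-1.19, -1.25 to -1.12) and was the called gene. *Dnajb1*, an HSP70 co-chaperone (149 and 75.03 CPM, -0.98), *Hspb1* (1385 and 839 CPM, -0.72) and *Hspa1a* (2988 and 1946 CPM, -0.62) were nearer to 0. *Hspa1a* and *Hspa1b* are near-identical, and the split of reads between them is uncertain. The constitutive chaperones *Hspa8* (-0.16) and *Hsp90ab1* (-0.12) lay near 0. *Bag3*, a co-chaperone, had the highest ratio (0.39), and the median of the list was -0.09, or 0.02 relative to genes of like length.

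Clock genes were apart in opposite directions. In the cell-autonomous clock, BMAL1 (*Arntl*) pairs with CLOCK or NPAS2 to switch on *Dbp*, *Nr1d1* and the *Per* and *Cry* genes, and NR1D1 in turn represses *Arntl*. *Dbp* (chr7:45705088-45710203), an output factor, was at 378 and 114 CPM (-1.72, -1.85 to -1.61), with 385, 443 and 315 CPM in naïve clusters 0, 1 and 2 and 123, 151 and 86.3 CPM after injury. *Nr1d1* was at 299.9 and 130.5 CPM (-1.19, -1.32 to -1.08). *Arntl* (chr7:113207465-113314126) was at 15.8 and 52.1 CPM (1.66, 1.46 to 1.99), with cluster ratios of 1.66, 1.32 and 1.87. *Npas2*, named here after its values were seen, was at 6.95 and 28.00 CPM (1.87, 1.62 to 2.40), under the level needed for a call.

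The window of the *Arntl* start is shown because it holds a core of the element that NR1D1 and the ROR receptors bind (AGGTCA, or TGACCT where it lies on the other strand, in capitals). This core was added after the data were seen and was in 1 of 3 windows of the called clock genes and in 18.1% of the windows of all genes. An E-box (CACGTG) was in 0 of these 3 windows and in 8.09% of all.
*Arntl* (chr7:113207261-113207560, plus strand): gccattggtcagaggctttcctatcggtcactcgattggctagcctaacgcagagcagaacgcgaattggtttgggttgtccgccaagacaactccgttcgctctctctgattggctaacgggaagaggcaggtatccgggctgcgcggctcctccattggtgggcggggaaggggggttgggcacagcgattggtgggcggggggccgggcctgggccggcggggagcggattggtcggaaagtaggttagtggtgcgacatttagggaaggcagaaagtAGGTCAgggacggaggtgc

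Of the 10 clock genes at 50 CPM or more, 2 were called lower and 1 higher, with a list median of -0.62. The shares over all genes tested were 0.410% lower and 0.193% higher. *Hlf* (-0.94), *Tef* (-0.74), *Nr1d2* (-0.71), *Cry2* (-0.52), *Cry1* (-0.40) and *Per1* (-0.39) had negative and *Clock* (0.43) a positive log2 ratio, all within 2-fold. These genes were apart in other cell types of the same libraries too. *Dbp* was at 81.3 and 15.6 CPM in smooth muscle (-2.30) and at 122 and 24.1 CPM in endothelial cells (-2.30), and *Arntl* at 18.5 and 32.1 CPM and 18.8 and 44.98 CPM. The ischemic injury pericytes held 290.2 CPM of *Dbp* and 27.8 CPM of *Arntl*. The hour of collection and the condition cannot be told apart.

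The 8 genes that were higher after physical injury are described singly, and most were not particular to pericytes. In 5 other cell clusters of the same libraries 7 of the 8 were higher too, and the part of library preparation in their ratios was not tested. *Cdk8*, the kinase of the Mediator complex (chr5:146231230-146302874), was at 175 and 928 CPM (2.40, 2.33 to 2.48), and was found in 14.99% of thinned naïve and 57.5% of thinned injured cells. *Cmss1* (chr16:57302000-57606864), a homolog of a yeast ribosomal small subunit protein, was at 964 and 3889 CPM (2.01, 1.98 to 2.04), in 57.7% and 94.7% of thinned cells. *Camk1d*, a calcium and calmodulin-dependent kinase, was at 299 and 838 CPM (1.48), *Lars2*, the mitochondrial leucyl-tRNA synthetase, at 239.6 and 512 CPM (1.09), and *Gm20594* at 41.3 and 141 CPM (1.75). Each of the 8 was at least 2-fold higher in each of the 3 clusters.

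Most of these genes were higher beyond the pericytes as well. In 5 other clusters with at least 50 cells in both libraries, 7 of the 8 genes were higher after physical injury in all 5, and *Carmn* was higher in 3. *Cmss1* was at 1153 and 3255 CPM in smooth muscle and at 1511 and 4132 CPM in endothelial cells, and *Cdk8* at 173 and 691 CPM and 268 and 897 CPM. Of the 17 lower genes, *Dbp*, *Nr1d1*, *Jun*, *Jund* and *Klf4* were lower in all 5. The share of all tested genes with the pericyte direction in all 5 is not given here, so that these counts cannot be judged against it. The ischemic injury pericytes held 4783 CPM of *Cmss1* and 1699 CPM of *Cdk8*. *Cmss1* overlaps *Filip1l* on the opposite strand, which was at 587 and 519 CPM, and the use of strand in counting is not given in the sources used here. Of the 25 called genes, 6 overlap a protein-coding gene in this way.

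*Carmn*, a long non-coding RNA of smooth muscle and other mural cells, was at 147 and 356 CPM (1.27, 1.19 to 1.37), with 94.9, 153 and 213 CPM in the naïve and 204, 429.9 and 450.2 CPM in the injured clusters.

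The lower genes outside the groups above were *Spp1*, *Txnip* and *Gm26532*. *Spp1* (osteopontin, a secreted matrix protein) was at 307 and 111 CPM (-1.45, -1.59 to -1.34), with 329.9, 408 and 189 CPM in naïve clusters 0, 1 and 2 and 70.3, 211 and 93.1 CPM after injury. *Txnip*, a glucose-responsive inhibitor of thioredoxin, was at 232 and 109 CPM (-1.08). *Gm26532*, a non-coding locus that overlaps the microRNA gene *Mir24-2* on the same strand, was at 132 and 20.9 CPM (-2.61, -2.95 to -2.39), and most of its naïve level came from cluster 0 (234, 52.9 and 58.3 CPM in clusters 0, 1 and 2).

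Genes that define pericytes stood near their naïve level in these cells. The study named the clusters kept here with such genes, so that this likeness is partly fixed by the choice of cells. These clusters held 3243 of 4306 naïve and 1106 of 2563 injured cells, and the identity genes of the remaining cells are not given here. All 24 pericyte identity genes reached 50 CPM, all were within 0.5 of 0 on the log2 scale, and the median was -0.03. *Pdgfrb*, the PDGF-BB receptor, was at 1599 and 1566 CPM. *Abcc9* (1509 and 1479 CPM) and *Kcnj8* (1548 and 1401 CPM) encode the KATP channel of pericytes. *Cspg4*, which encodes NG2 and drives the Cre of this line, was at 799 and 761 CPM. *Notch3* (876 and 892 CPM), a receptor of mural cells, and the transporter *Atp13a5* (2259.9 and 2592 CPM) had log2 ratios of 0.03 and 0.20. *Higd1b* was at 2149 and 1776 CPM (-0.28), the lowest ratio of the list.

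In clusters 0, 1 and 2 the lists of vessel repair had no member past 2-fold. The mesenchymal-like pericytes of the study (cluster 8) and its cluster 10 were left out, so that this is partly fixed by the choice of cells. Over all genes tested 0.193% were called higher and 0.410% lower, so that no call in such lists is near the share over all genes. Only 12 of 31 fibrillar matrix, 6 of 24 chemokine and cytokine and 8 of 36 cell cycle genes reached the level needed. The medians were -0.06 for 9 contractile genes, 0.12 for 14 basement membrane genes, -0.10 for 12 fibrillar matrix and wound repair genes, -0.08 for 15 hypoxia genes, -0.09 for 13 TGF-beta and BMP genes, -0.13 for 6 chemokine and cytokine genes and -0.11 for 8 cell cycle genes at 50 CPM or more. With all 5 pericyte clusters the median was 0.26 for contractile, 0.19 for fibrillar matrix, 0.09 for chemokine and cytokine and 0.12 for basement membrane genes. At 10 CPM or more, 11 of 18 fibrillar matrix genes were above 0 in clusters 0, 1 and 2, with a median of 0.14. *Cald1* (caldesmon), the most abundant contractile gene, was at 4070.4 and 4262 CPM, and *Sparc*, the most abundant basement membrane gene, at 1413 and 1429 CPM. The collagen gene *Col5a3* had the highest ratio among fibrillar matrix genes (41.95 and 76.3 CPM, 0.85, 0.67 to 1.05). All 10 metallothionein, iron and oxidative stress genes (median -0.27) and all 14 genes of the unfolded protein response (median -0.12) had negative log2 ratios within 2-fold. Over all genes tested 44.9% were above 0, and 11.8% of those of up to 3 kb. Across the alternatives these medians reached -0.11 and -0.02 at most.

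Genes of neural progenitors, named because the study asked whether pericytes are reprogrammed, were mostly at low levels in both libraries. The study placed cells with *Sox2* and *Fabp7* in a separate cluster of radial glial precursors, which is not among the clusters kept here. The low levels are therefore partly fixed by the choice of cells and cannot answer that question. *Sox2*, a stem cell factor, had 13 UMIs in the naïve and 5 UMIs in the physical injury pericytes, 1.02 CPM (0.541 to 1.74) and 0.933 CPM (0.303 to 2.18), a difference not detectable at this depth. *Fabp7*, a radial glia marker, was at 10.9 and 14.7 CPM. The intermediate filament genes *Nes* (153 and 154 CPM, 0.01) and *Vim* (87.1 and 104 CPM, 0.25) lay within 1.5-fold. *Klf4* was the only one of 5 members at 50 CPM or more that was called, and it was lower.

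Interferon-stimulated genes lay mostly under the level used for calls. Among the 27 at 10 CPM or more, 25 were above 0 on the log2 scale, with a median of 0.25, beside 47.8% of the 9168 genes at 10 CPM or more and a median of -0.01. At 50 CPM or more, 3 of 5 were above 0 with a median of 0.12, which was -0.02 with cells thinned to 1000 UMIs. *Isg15*, a ubiquitin-like protein, was at 15.8 and 43.1 CPM (1.39, 1.17 to 1.73), and *Ifit1*, an RNA sensor, at 2.34 and 12.3 CPM (1.99, 1.75 to 3.07), from 30 and 66 UMIs. *Isg15* was found in 1.71% of thinned naïve and 3.78% of thinned injured cells, and *Ifit1* in 0.187% and 1.01%. In smooth muscle cells *Ifit1* (-1.81) and *Ifit3* (-2.36) had ratios of the opposite sign. The abundant *Ifitm1* (911 and 905 CPM), *Ifitm2* (554 and 491 CPM) and *Ifitm3* (843 and 928 CPM) lay near 0. Of the separate list of MHC class I presentation genes, 3 of the 11 at 10 CPM or more were above 0, with a median of -0.19.

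**Figure D4:**
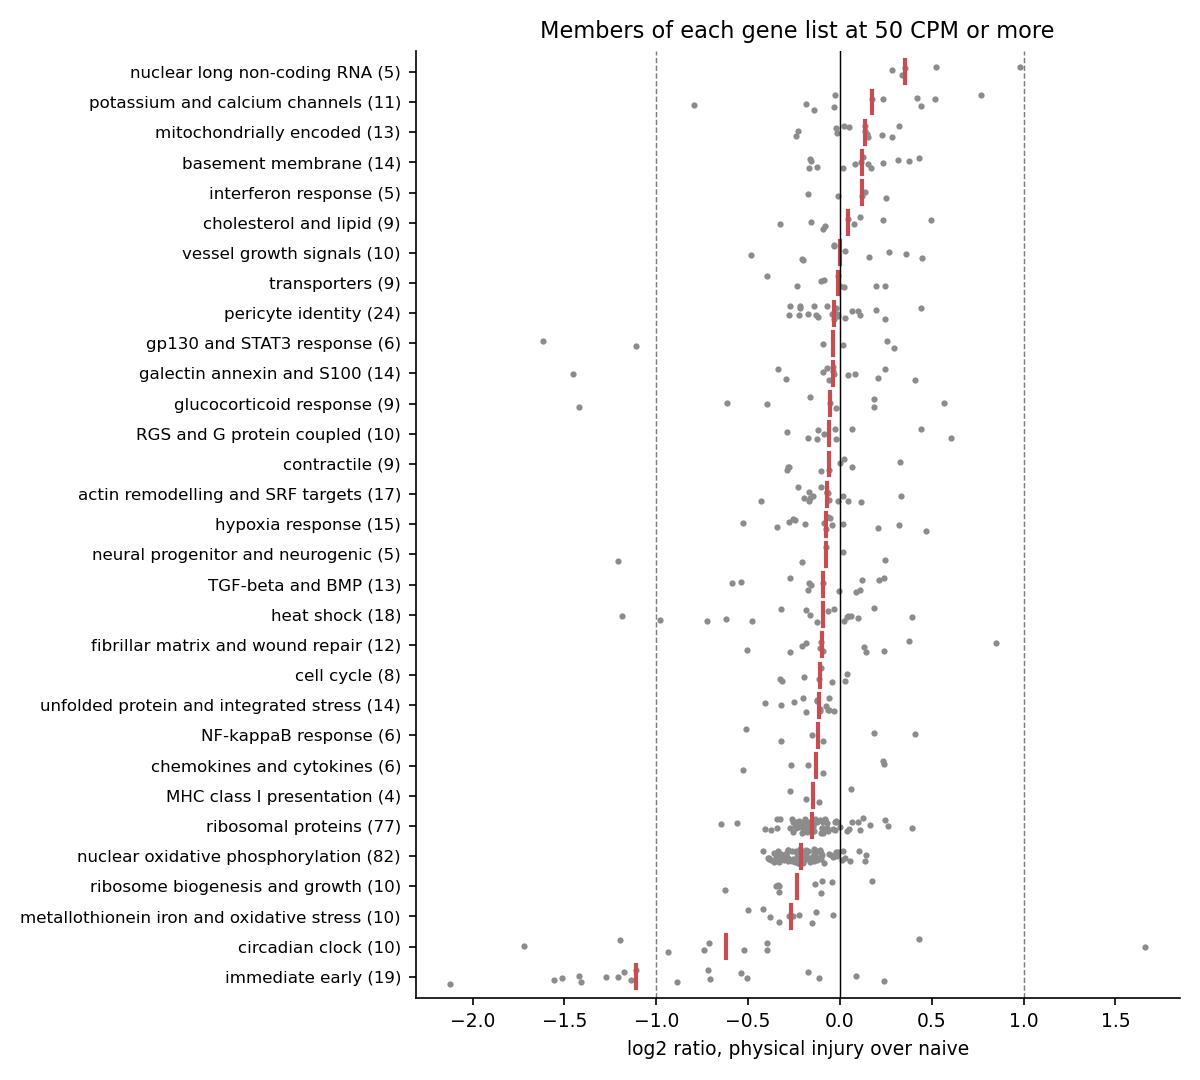
Log2 ratio of physical injury to naïve pericytes for the members at 50 CPM or more of each gene list (points) and the list's median (bar), with lines at 2-fold. The immediate early (-1.11) and circadian clock (-0.62) medians lie lowest.

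The ratios shifted with gene length. The median log2 ratio was -0.22 for the 246 genes of up to 3 kb, -0.18 for 3 to 10 kb, -0.10 for 10 to 30 kb, 0.04 for 30 to 100 kb, 0.20 for 100 to 300 kb and 0.36 for the 174 genes over 300 kb. Of the genes over 300 kb, 94.8% were above 0, against 11.8% of the shortest. The 58 genes at least 1.5-fold higher had a median length of 205 kb and the 48 at least 1.5-fold lower one of 4.79 kb, against 29.9 kb over all genes tested. Among long genes, *Cacna1c*, the pore of the L-type calcium channel, was at 386 and 659.6 CPM (0.77), and the non-coding RNA *Meg3* at 219 and 433 CPM (0.98), both chosen after their values were seen. *Cmss1* (305 kb) and *Camk1d* (421 kb) of the called genes lie in the class over 300 kb. Versions of the counting software can differ in whether reads from introns are counted. The version behind each library is not given in the sources used here, so that it cannot be told apart from the condition. Its part in these ratios was not tested. The nuclear RNA *Malat1* was at 53891 and 68843 CPM (0.35).

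Short housekeeping transcripts were on the other side. The median was -0.15 for 77 genes picked by the symbols of ribosomal proteins (Rpl or Rps), of which 11 were above 0. These symbols also take in ribosomal S6 kinases such as *Rps6ka1*, so that not every member need be a ribosomal protein. For 82 nuclear oxidative phosphorylation genes the median was -0.21, and 7 were above 0. The ribosomal protein median turned to 0.03 with all 5 pericyte clusters and also relative to genes of like length. The order by length was present in clusters 0, 1 and 2 (-0.17, -0.18 and -0.23 in the shortest and 0.33, 0.40 and 0.25 in the longest genes) and in endothelial cells (-0.18 and 0.33), and in smooth muscle cells the span was smaller (-0.07 and 0.12), with no order among genes of up to 30 kb (-0.07, -0.08 and -0.08). In the ischemic injury pericytes, against the same naïve cells, the medians were 0.01 and -0.02. With the median of genes of like length taken off, an alternative chosen after seeing the data, the log2 ratio of *Jun* was -1.23, of *Fos* -1.10, of *Atf3* -2.16, of *Cdk8* 2.36 and of *Cmss1* 1.65. Those of *Hspa1b* (-0.96), *Ier2* (-0.95), *Junb* (-0.93), *Jund* (-0.91) and *Txnip* (-0.91) were then under 2-fold.

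**Figure D5:**
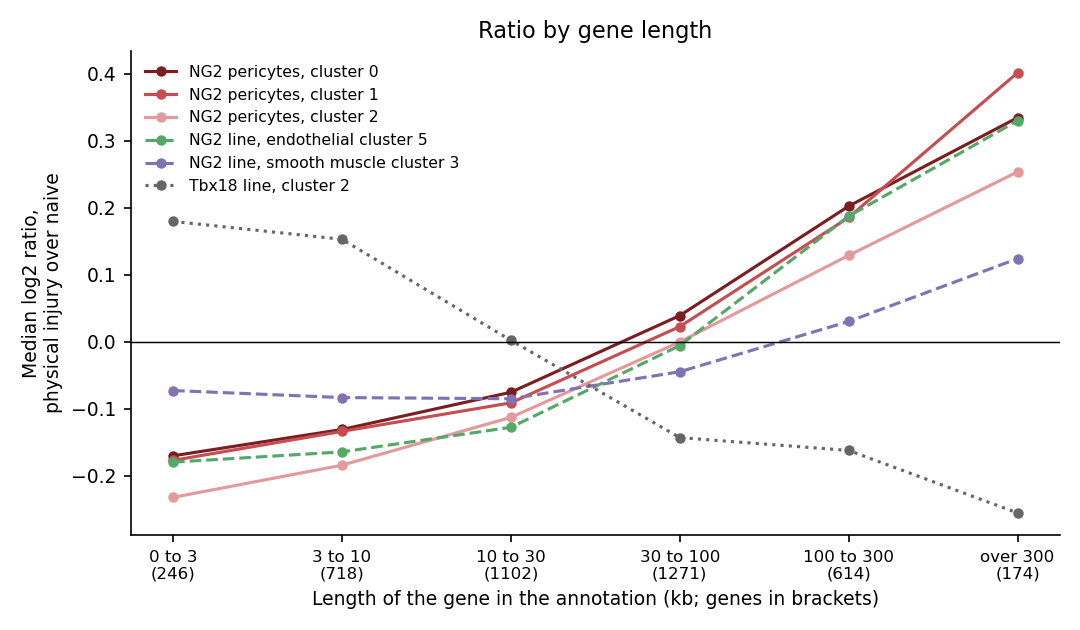
Median log2 ratio of physical injury to naïve by the length of the gene (kb), for *NG2* pericytes, other cells of the same libraries and cluster 2 of the *Tbx18* line. Clusters 0, 1 and 2 of the *NG2* pericytes run from -0.17, -0.18 and -0.23 to 0.33, 0.40 and 0.25 with length. The *Tbx18* line runs from 0.18 to -0.26.

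The study's second line, *Tbx18-CreERT2/Ai14-flx*, gave a comparison with separate animals and libraries. Its cluster 2, named canonical pericytes by the study, held 226 naïve and 433 physical injury cells, with a median of 6548 and 2540 UMIs per cell. There, 6.42% of 4439 genes were at least 2-fold higher and 3.67% at least 2-fold lower. Of the 25 genes called in *NG2* pericytes, 13 had the same direction there (5 of 8 higher and 8 of 17 lower), and 3 of these were at least 2-fold apart. They were *Hspa1b* (1589.7 and 243 CPM, -2.70), *Spp1* (67.2 and 31.7 CPM, -1.06) and *Carmn* (125 and 290.3 CPM, 1.21). In the opposite direction 2 were at least 2-fold apart, *Socs3* (1.58) and *Txnip* (1.13). The share of all genes with the same direction in both lines is not given here. *Cdk8* was at 321 and 622 CPM (0.95) and *Cmss1* at 1364 and 1953 CPM (0.52).

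The immediate early genes did not share a direction in the *Tbx18* line, where the median of the list was 0.27. *Egr1* was at 3418 and 1973 CPM (-0.79) and *Jun* at 6942 and 4886 CPM (-0.51), while *Socs3* was at 240.1 and 717 CPM (1.58), *Atf3* at 518 and 982 CPM (0.92) and *Junb* at 2069 and 3134 CPM (0.60). Of the clock genes, *Dbp* was at 132 and 233 CPM (0.81) and *Arntl* at 51.8 and 29.6 CPM (-0.78), each opposite in sign to the *NG2* line. *Isg15* was at 12.1 and 72.1 CPM (2.48, 1.85 to 3.38), of the same sign as in the *NG2* pericytes.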

How the data were processed

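The authors deposited UMI counts of each gene in each cell, made with Cell Ranger on mm10. The submitters' processing notes name version 7.0.0, and the study's methods name a range of versions without saying which one counted which library. Versions can differ in whether reads from introns are counted. Their filters on genes, UMIs and mitochondrial transcripts had been applied, and *Gm42418* and *AY036118* removed. The study left both genes out because earlier work had described them as contamination by ribosomal RNA. Whether other genes carry such contamination was not tested here. Cluster numbers are those of the authors' Seurat object of the *NG2* line. The annotation release and the treatment of doublets are not given in the sources used here, and no cell was removed.

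For each library, counts of clusters 0, 1 and 2 were added up and scaled to 1000000 UMIs (CPM). Levels have 95% exact Poisson intervals, and ratios 95% exact binomial intervals without the added 1 CPM. Shares were taken after thinning cells to 1000 UMIs. Named genes are the called genes, called and most abundant members of lists, and identity and neural genes. Those over 10 times as high in another cell cluster were named apart. Other members of a list and any gene said to be so were chosen after their values were seen. Some genes are not reported here. Members and lists were chosen with earlier results of these data known. Positions and lengths are from GENCODE M21 (mm10), found for 99.5% of genes tested. Scripts were tested on simulated counts. Python 3.11.15, numpy 2.4.6, scipy 1.17.1, R 4.3.3 and edgeR 4.0.16 (scaling factors only) were used. The alternatives are given in the closing section.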

Additional observations from a re-analysis of the deposited data

Results flagged for a closer look

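Of the genes called in the pericytes of the *NG2* line and reported here, 9 had the opposite direction in cluster 2 of the *Tbx18* line, with counting intervals that excluded 0 in both lines. Each line has 1 library a condition, and the difference between the lines was not tested. The share of all genes with such opposite directions is not given here, so that this count cannot be judged against it. The 7 genes that were lower in the *NG2* line were higher in the *Tbx18* line on the log2 scale, *Socs3* by 1.58 (1.41 to 1.76), *Txnip* by 1.13, *Atf3* by 0.92, *Klf2* by 0.88, *Dbp* by 0.81, *Junb* by 0.60 and *Fos* by 0.27. The 2 genes that were higher in the *NG2* line had negative log2 ratios in the *Tbx18* line, *Arntl* with -0.78 and *Camk1d* with -0.72. Median depth went from 3821 to 4684 UMIs per cell in the *NG2* pericytes and from 6548 to 2540 UMIs in the *Tbx18* cells, and its part in these differences was not tested. The order by gene length was also opposite in the 2 lines. From the shortest to the longest genes the median log2 ratio went from -0.22 to 0.36 in the *NG2* pericytes. In the *Tbx18* cells it went from 0.18 to -0.26, and the part of gene length was not tested.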

How the results depend on the processing

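With 1 library a condition there is no replicate, and no alternative here can stand for the spread between animals. No paired analysis was possible because the results come from no test and each group holds 1 sample. The 8 higher genes remained under all 15 alternatives, but not every alternative could remove a gene. A lower minimum, no minimum and no requirement on the single clusters only loosen the rule, so that no called gene could be lost. The scaling factors were 0.998 (naïve) and 1.002 (physical injury) and could move little. The same holds for the study's filters applied again, which kept 3187 of 3243 naïve and 1104 of 1106 injured pericytes. The number of higher genes moved to 16 with a minimum of 10 CPM, 69 with no minimum and 15 with all 5 pericyte clusters. The 17 lower genes became 26 with a minimum of 10 CPM, 103 with no minimum and 7 when each cluster had to pass 2-fold by itself. With equal weight to each cluster 14 of the 17 remained, and *Hspa1b* (-0.988), *Junb* (-0.985) and *Txnip* (-0.967) were under 2-fold. With ratios taken relative to genes of like length, an alternative chosen after seeing the data, 12 of the 17 remained. The median of the immediate early list (-1.11) was -0.71 with no minimum level, -0.99 with equal weight to each cluster, -1.02 with cells thinned to 1000 UMIs and -0.91 relative to genes of like length. None of 275 recomputed ratios of the 25 called genes turned its direction, 53 lay outside the counting interval of the reported value and 8 were under 2-fold. List medians near 0 have no stable sign, the contractile median running from -0.11 to 0.26 and the fibrillar matrix median from -0.17 to 0.19. Leaving out cells with markers of other cell types removed 0 naïve and 2 injured cells, so that it too could move little.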
